A study of Mus musculus with 65 samples.

Results

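Transcripts of 10 BCL2 family genes were examined in single outer hair cells (OHCs) of the mouse cochlea at postnatal day 10. The genes were taken by name from a deposited table of 55292 gene symbols, and all 10 had a row. They comprise 2 effectors (Bax and Bak1), 3 anti-apoptotic members (Bcl2, Bcl2l1 and Mcl1) and 5 BH3-only members (Bbc3, Pmaip1, Bid, Bcl2l11 and Bad). The series holds 65 cells, each picked by hand and sequenced as 1 full-length cDNA library without molecular identifiers. The WT group of 48 cells had the alleles Slc26a5FlpO/+ and Rosa26FSF-H2BEGFP/+, by which OHC nuclei turn green. The group of 17 cells labelled Casz1 CKO had these same alleles and, beyond them, Atoh1Cre/+ and Casz1flox/flox. The product of Casz1 is a zinc finger protein that binds DNA, and the series title ties the gene to OHC survival. The Cre is driven from Atoh1, a gene of early hair cells, and since the WT group had no Cre, its effects and those of Casz1 loss cannot be told apart. No animal, litter or picking day is named, so each genotype was treated as 1 sample, no test was run, and no difference below has a replicate check.

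The BCL2 family decides whether the outer membrane of the mitochondrion stays intact. Bax and Bak1 proteins form pores that release cytochrome c, BCL2, BCL-XL (from Bcl2l1) and MCL1 hold them in check, and BH3-only proteins bind and disarm the guards or activate the effectors directly. Bax is known as a mediator of hair cell loss after ototoxic drugs, and much of the control of the family lies in phosphorylation, localisation and protein turnover, which transcript counts do not show.

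Hair cell genes used as OHC markers, Myo7a and Pou4f3 among them, stood high in both groups. The summed level of these 9 genes ran from 15865 to 65580 CPM (counts per 1000000 counts of the library) per cell in WT and from 34268 to 91192 CPM in CKO cells. Total counts per cell ran from 7458126 to 17107710 in WT and from 8239671 to 15320549 in CKO cells, with medians of 7586 and 7417 genes detected. The share of counts from mitochondrially encoded genes had a median of 6.52% in WT and 4.76% in CKO cells. Lists of other cell types summed, over all cells of a group, to 73.0 CPM in WT and 28.1 CPM in CKO cells for supporting cells, 19.3 and 3.85 CPM for macrophages, 218 and 222 CPM for neurons, and 120 and 66.9 CPM for glia. For inner hair cells the sums were 183 and 101 CPM, for mesenchyme 29.1 and 8.47, for erythroid cells 4.41 and 5.06 and for endothelium 2.01 and 8.27 CPM. Single cells stood higher, up to 1036 CPM in WT and 307 CPM in CKO for inner hair cells. The highest cells had 480 and 183 CPM for supporting cells, 788 and 559 for neurons, 459 and 220 for glia and 546 and 117 CPM for mesenchyme. Of the 7 genes of the macrophage list only C1qa and Cx3cr1 had no count in any cell. The list reached 188 CPM in the highest WT cell and 73.4 CPM in the highest CKO cell. Casz1 itself stood at 53.3 CPM in WT and 46.2 CPM in CKO cells; the floxed exons are not named in the labels, so this value checks nothing about deletion. Xist-pattern cells, defined by Xist at 10 counts or more while the Y-linked genes summed to under 10, numbered 9 of 48 in WT and 15 of 17 in CKO. The reverse pattern, with Xist under 10 counts and the Y-linked sum at 10 or more, was found in 37 WT and 0 CKO cells. The sex pattern thus went largely with genotype and could not be fully told apart from it. WT cells fell into runs by number in the level of the mitochondrial transcript mt-Co2, from 33.5 to 83.6 CPM in cells 1 to 11, from 229 to 644 CPM in cells 12 to 45 and from 100 to 111 CPM in cells 46 to 48, while CKO cells ran from 94.8 to 283 CPM. Ratios within the Xist pattern or against single runs stand beside many results where they turn a direction, and beside some others where they move a value. The part of these sets in the differences was not tested.

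Start-site sequences are shown for Bax and Bad, which were read in most cells, and for Bid and Bcl2l11, which were almost unread, so that the members with and without transcripts can be compared. Each is the 100 bases before the most upstream RefSeq start site (GRCm38.p6), written 5′ to 3′ on the strand of the gene. Capitals mark matches on either strand to the GC box (GGGCGG), the CCAAT box (CCAAT) or the E-box (CACGTG).
Bax, chr7:45466899-45466998, minus strand: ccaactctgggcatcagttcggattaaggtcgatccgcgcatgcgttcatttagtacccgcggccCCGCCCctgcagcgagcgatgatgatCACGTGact
Bad, chr19:6941761-6941860, plus strand: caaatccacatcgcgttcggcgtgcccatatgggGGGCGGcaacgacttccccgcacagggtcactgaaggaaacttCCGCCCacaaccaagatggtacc
Bid, chr6:120916825-120916924, minus strand: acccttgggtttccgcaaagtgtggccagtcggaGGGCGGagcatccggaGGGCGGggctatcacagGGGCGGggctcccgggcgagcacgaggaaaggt
Bcl2l11, chr2:128125938-128126037, plus strand: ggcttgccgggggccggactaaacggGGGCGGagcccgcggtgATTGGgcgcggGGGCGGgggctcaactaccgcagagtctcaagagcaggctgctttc

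Both the read and the unread genes had GC boxes before their start sites. The full 250 bases before the start site were searched for 9 members, and Pmaip1 was left out. A GC box was found for 7 of the 9, with 2 matches for Bax and 3 each for Bad, Bid and Bcl2l11. Bcl2 had 7 matches, Bbc3 had 5 and Mcl1 had 1. Bak1 and Bcl2l1 had none. A GC box was present in 32.7% of 32851 mouse promoter windows of that length, a CCAAT box in 33.85% and an E-box in 6.02%. Bax also had 1 E-box and 1 match to the p53 half-site by its consensus, which 7.13% of windows hold. None of these 9 members had TATAAA (12.4% of windows), the cAMP response element TGACGTCA (1.55%) or the C/EBP-ATF composite site TGATGCAA (0.79%) before that start site. The matches printed above did not overlap one another. They describe letters and not binding.

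Among the 10 genes, Bad, Bax, Bcl2l1 and Mcl1 carried nearly all reads. Per kilobase of exon over all 65 cells, Bad stood at 33.7 CPM per kb, Bax at 18.6, Bcl2l1 at 13.3 and Mcl1 at 10.1 CPM per kb. Bbc3 followed at 1.64, Bak1 at 0.628 and Bcl2 at 0.567 CPM per kb, and Bid, Bcl2l11 and Pmaip1 stood at or near 0. On this scale, with means of per-cell values, the step between neighbours was smaller than the SD of the upper gene over cells, from Bad down to Bcl2. Bad exceeded Bax by 14.7 CPM per kb, where the SD of Bad over cells was 26.7. Bax exceeded Bcl2l1 by 5.11 CPM per kb, where the SD of Bax was 22.1. The SD describes the spread of 1 gene and does not test the order. Bad was above Bax in 43 of 65 cells and below it in 19. Bax and Bcl2l1 were level by this count, at 30 cells against 31, while Mcl1 was above Bbc3 in 35 cells and below it in 8.

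**Figure D1:**
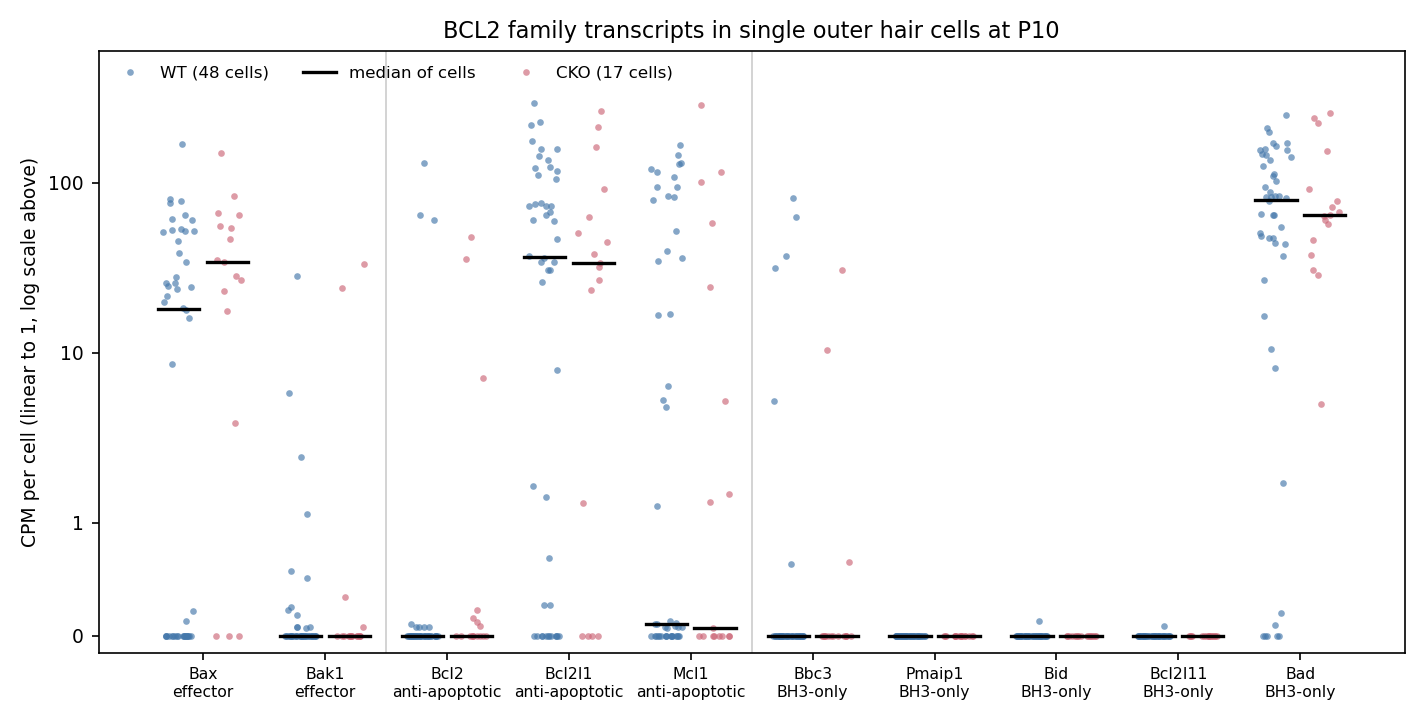
CPM of each of the 10 genes in each cell (vertical axis, linear up to 1 CPM and logarithmic above), with 48 WT cells in blue and 17 CKO cells in red; black bars are medians over cells. Bax, Bcl2l1 and Mcl1 spread from 0 to over 100 CPM in both groups and Bad from 5.02 CPM upwards in CKO cells, while Pmaip1 lies at 0 in every cell.

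Bax, the pore-forming effector that moves from the cytosol to mitochondria, was the measured member with the largest difference between the groups (chromosome 7, 45461697 to 45466898, minus strand, GRCm38). In WT cells it ran from 0 to 169 CPM with a median of 18.1 CPM, and in CKO cells from 0 to 150 CPM with a median of 34.03 CPM. The ranges overlapped almost entirely. Summed over cells, Bax stood at 25.1 CPM in WT (95% Poisson interval 24.7 to 25.5) and 41.1 CPM in CKO cells (40.26 to 42.04), a log2 ratio of 0.71 (0.67 to 0.75). These intervals cover counting error alone, since reads that carry no molecular identifier can be copies of 1 molecule. A CKO cell was the higher one in 65.01% when each of the 17 was set against each of the 48 (816 pairs).

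The share of cells with Bax was higher among CKO cells, while its median level in those cells was close in both groups; neither was tested. At least 10 counts were found in 27 of 48 WT cells (exact binomial 95% interval 41.2% to 70.5%) and in 14 of 17 CKO cells (56.6% to 96.2%); these intervals cover the sampling of cells alone and do not compare the genotypes. Among those cells the medians were 38.4 CPM in WT and 41.01 CPM in CKO. CKO cell 6 held 24.3% of the group's Bax counts, and without it the CKO level was 33.4 CPM and the log2 ratio 0.41. The ratio was 0.59 among Xist-pattern cells, 0.64 against WT cells 1 to 11, 0.65 against WT cells 12 to 45 and 2.31 against the 3 WT cells 46 to 48, of which 1 had a count. Of the exon bases of Bax, 12.2% are shared with Gm45808 on the same strand, whose reads could not be told apart there.

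Bak1, the other effector and a resident of the mitochondrial membrane, was read in few cells and was under 5 CPM in both groups. Among WT cells 4 of 48 had at least 10 counts, and among CKO cells 2 of 17. The CKO cells were cell 8 with 33.5 CPM and cell 16 with 24.1 CPM. The highest WT cell was cell 45 with 28.4 CPM, and the next was cell 16 with 5.80 CPM. Summed levels of 0.907 CPM in WT and 3.17 CPM in CKO gave a log2 ratio of 1.81 (1.63 to 1.98). Single cells set that value: it was 0.38 without CKO cell 8 and 3.89 without WT cell 45, and the pair share was 49.3%. Of the 497 WT counts, 494 came from WT cells 12 to 45, against which the ratio was 1.19. Exons of Bak1 overlap those of Ggnbp1 on the opposite strand over 25.5% of their length, and the strand setting of the counts is not given in the sources used here.

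Among the anti-apoptotic genes, Bcl2l1 was the most read, with nearly equal sums in both groups (chromosome 2, 152780668 to 152831728, minus strand). It encodes BCL-XL, which binds Bax and Bak1 proteins as well as BH3-only proteins. WT cells ran from 0 to 297 CPM with a median of 36.6 CPM, and CKO cells from 0 to 265 CPM with a median of 33.8 CPM. The sums were 60.7 CPM (60.0 to 61.3) and 61.7 CPM (60.7 to 62.8), a log2 ratio of 0.026 (-0.0044 to 0.055). Presence at 10 counts or more was seen in 33 of 48 WT cells and 13 of 17 CKO cells, and the CKO cell was higher in 48.2% of pairs. The ratio was 0.45 against WT cells 1 to 11, -0.18 against WT cells 12 to 45 and 0.75 against WT cells 46 to 48. Without CKO cell 2, which held 24.6% of the group's counts, the ratio was -0.30.

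Mcl1, whose protein turns over rapidly, had at least 10 counts in about as large a share of cells in each group (chromosome 3, 95658788 to 95663176, plus strand). This held for 22 of 48 WT cells (45.8%) and 8 of 17 CKO cells (47.1%). At least 1 count was present in 31 of 48 WT cells (64.6%) and 9 of 17 CKO cells (52.9%). The medians were 0.11 CPM in WT and 0.065 CPM in CKO cells, near 1 count, and the highest cells reached 167 and 287 CPM. The sums of 33.8 CPM (33.3 to 34.3) and 36.8 CPM (35.99 to 37.7) gave a log2 ratio of 0.12 (0.084 to 0.16). CKO cell 9 alone held 47.9% of the CKO counts. Without it the CKO level was 20.4 CPM and the log2 ratio -0.73, so the direction rests on that cell, and a CKO cell was the higher in 44.9% of pairs. The ratio was 0.45 against WT cells 1 to 11 and -0.13 against WT cells 12 to 45, and WT cells 46 to 48 had no Mcl1 count.

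Bcl2, the founding member, was read in so few cells that its level describes those cells. At least 10 counts were present in 3 of 48 WT cells, namely cells 21, 39 and 40 with 131, 64.8 and 60.6 CPM. In CKO they were present in 3 of 17 cells, namely cells 1, 10 and 15 with 48.01, 35.5 and 7.12 CPM. The 3 WT cells lie in the run 12 to 45; WT cells 1 to 11 had 1 count of Bcl2 in all, and so had WT cells 46 to 48. The sums were 4.86 CPM in WT and 6.09 CPM in CKO, a log2 ratio of 0.32 (0.23 to 0.42) that became -0.80 without CKO cell 1, 1.14 without WT cell 21 and -0.30 against WT cells 12 to 45.

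Bad was the most widely read member (chromosome 19, 6941861 to 6951899, plus strand). Its BH3-only protein binds BCL-XL and BCL2 and is held in the cytosol by 14-3-3 proteins when phosphorylated. A count was present in 43 of 48 WT cells and in all 17 CKO cells (80.5% to 100%). WT cells ran from 0 to 251 CPM with a median of 79.7 CPM, and CKO cells from 5.02 to 258 CPM with a median of 64.9 CPM. The sums ran the other way, at 83.4 CPM (82.6 to 84.2) in WT and 93.8 CPM (92.5 to 95.2) in CKO, a log2 ratio of 0.17 (0.15 to 0.19). The pair share was 51.7%. Without CKO cell 7 the ratio was -0.0082. Against WT cells 1 to 11 it was -0.18, and within the Xist pattern -0.20. Exons of Bad overlap those of Gpr137 on the opposite strand over 20.5% of their length.

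Bbc3 encodes PUMA, a BH3-only protein induced by p53 and by other stress signals, and it was present in a few cells of each group. At least 10 counts were found in 5 of 48 WT cells, with cell 33 highest at 81.6 CPM and cell 14 next at 63.3 CPM. In CKO they were found in 3 of 17 cells, of which cell 16 had 30.8 CPM, cell 13 had 10.4 CPM and cell 14 had 0.653 CPM. Summed levels were 4.07 CPM in WT and 1.85 CPM in CKO, a log2 ratio of -1.14 (-1.30 to -0.98). The ratio was -0.39 without WT cell 33 and -3.02 without CKO cell 16. Against WT cells 1 to 11 it was 2.04, against WT cells 12 to 45 it was -1.71, and within the Xist pattern 1.85; WT cells 46 to 48 had no count. Both groups stood under 5 CPM, and Bbc3 has no stable direction in these cells.

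The remaining BH3-only genes were read in almost no cell. Pmaip1, which encodes the MCL1 antagonist NOXA, had no count in any cell. By a limit of 3 cells of the total, 0 of 65 cells allows a share of cells with a count of up to 4.62%. A limit of 3 counts of the total gives 0.0040 CPM over all cells, but it covers the counting of reads alone. Reads without molecular identifiers can be copies of 1 molecule, and a gene read in 1 cell can hold many, as Apaf1 did with 980 counts. The level limit therefore does not cover transcripts that were missed before sequencing. Bid, whose protein links caspase-8 to mitochondria, had 1 count in 1 WT cell. Bcl2l11, which encodes BIM, had 1 count in 1 other WT cell. In CKO cells both had 0 counts, and 0 of 17 cells, by the same limit of 3, allows a share of up to 17.6%. Of the exon bases of Bid, 17.7% overlap Bcl2l13 on the opposite strand, and exons of Bcl2l11 and Pmaip1 overlap no other gene. Lower levels, and transcripts not captured from a cell, were not detectable here.

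Of the 10 members, 5 reached 5 CPM in the higher group (Bax, Bcl2, Bcl2l1, Mcl1 and Bad), and 0 of these 5 were at least 2-fold apart. Of the 10842 genes of the table that passed the same minimum, 29.5% were at least 2-fold apart, 15.1% with CKO higher and 14.5% with CKO lower. With 5 members the count does not set the family apart from other genes. The 5 members had a median log2 ratio of 0.17, against 0.0092 over the 10842 genes, and Bcl2 passed the minimum through the CKO group alone. Without the minimum, Bak1 and Bbc3 were past 2-fold, in opposite directions.

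**Figure D2:**
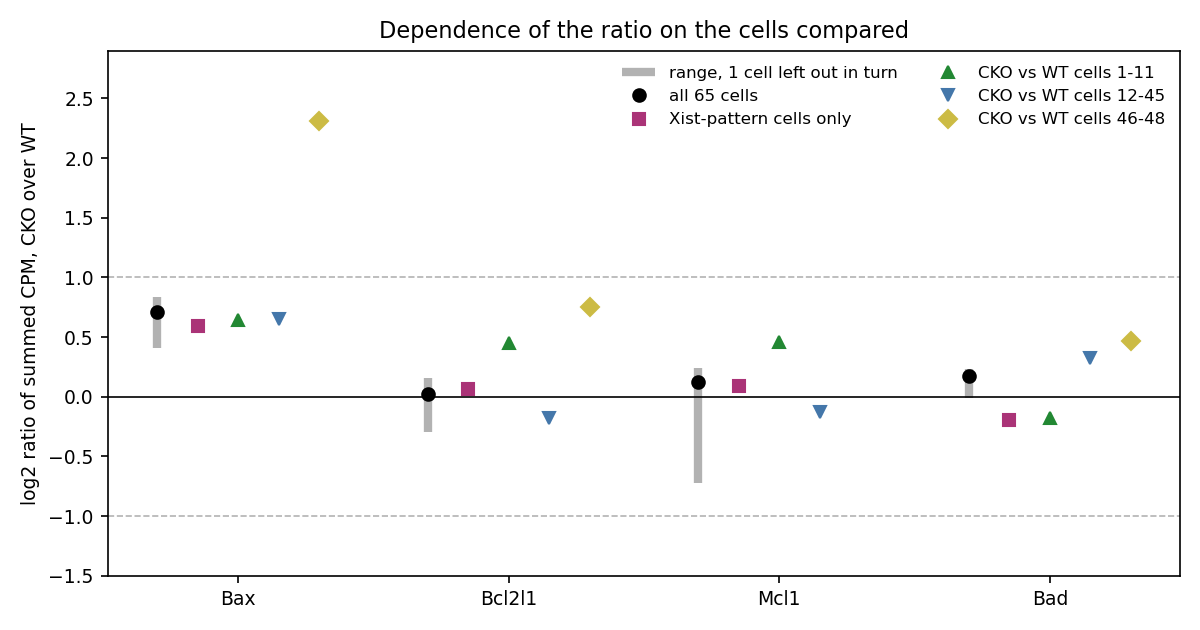
Log2 ratio of summed CPM, CKO over WT (vertical axis), for the 4 most read members under each set of cells compared; grey bars span the values with 1 cell left out in turn and dashed lines mark 2-fold. Bax stays between 0.41 and 2.31, while Bcl2l1, Mcl1 and Bad fall on both sides of 0; Mcl1 against WT cells 46 to 48, which had no count, is not drawn.

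Summed over all cells of a group, the pro-apoptotic members were slightly higher in CKO and the anti-apoptotic members nearly level, but neither size held across the runs of WT cells. The 7 pro-apoptotic genes stood at 113 CPM in WT (113 to 114) and 140 CPM in CKO (138 to 142), a log2 ratio of 0.30 (0.28 to 0.32). Per cell the sum ran from 0 to 315 CPM with a median of 106 CPM in WT and from 54.0 to 325 CPM with a median of 118 CPM in CKO. The 3 anti-apoptotic genes stood at 99.3 CPM (98.5 to 100.2) and 105 CPM (103 to 106), a log2 ratio of 0.075 (0.052 to 0.099), with medians per cell of 83.4 and 62.9 CPM. Against the 3 runs of WT cells in order, the pro-apoptotic log2 ratio was 0.076, 0.36 and 0.88 and the anti-apoptotic one 0.54, -0.17 and 1.51; the latter was -0.13 without CKO cell 9. The effectors made up most of the first difference, at 25.996 against 44.3 CPM, while the BH3-only sum was 87.5 against 95.7 CPM. The BH3-only sum was not taken against single runs or within the Xist pattern. Its most read gene, Bad, turned there, with 106 CPM in WT cells 1 to 11 against 93.8 CPM in CKO. Within the Xist pattern Bad stood at 115 CPM in WT and 100 CPM in CKO.

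The ratio of the pro-apoptotic to the anti-apoptotic sum was 1.14 in WT and 1.34 in CKO, a log2 change of 0.23 that did not keep its sign. It was -0.12 among Xist-pattern cells, -0.46 against WT cells 1 to 11, 0.53 against WT cells 12 to 45 and -0.63 against WT cells 46 to 48. The pro-apoptotic sum was the larger in 28 of 48 WT cells (58.3%) and 10 of 17 CKO cells (58.8%). The 3 WT cells without any pro-apoptotic count were cells 35, 46 and 48. Longer transcripts draw more reads, so on the scale per kilobase the 2 ratios were 2.15 and 2.61.

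**Figure D3:**
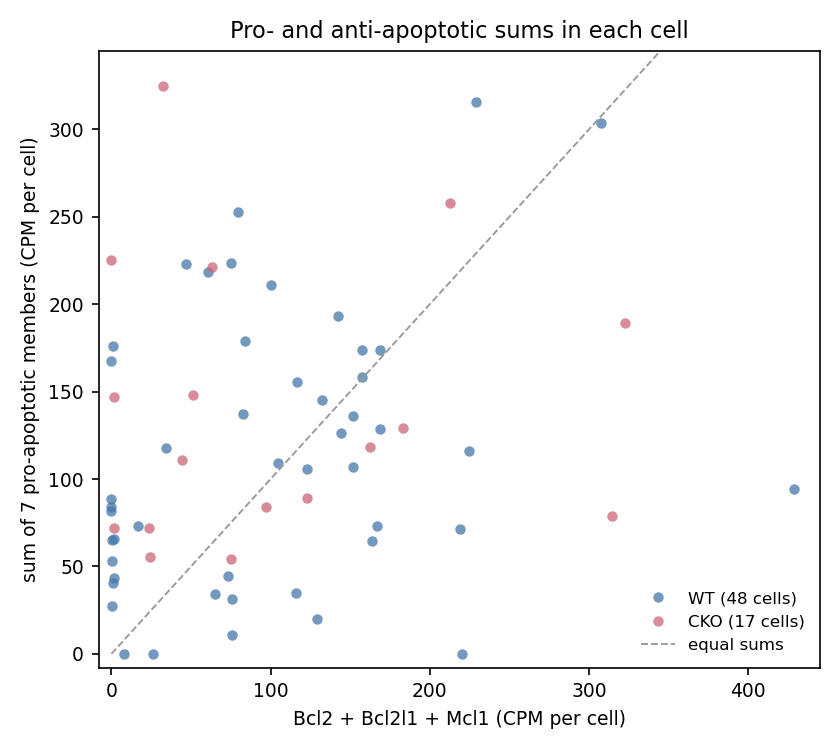
Each point is 1 cell, with the summed CPM of Bcl2, Bcl2l1 and Mcl1 on the horizontal axis and of the 7 pro-apoptotic genes on the vertical axis, WT in blue and CKO in red. Cells of both groups lie on both sides of the dashed line of equal sums, 58.3% of WT and 58.8% of CKO cells above it.

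Most cells had 1 or 2 of the anti-apoptotic members Bcl2, Bcl2l1 and Mcl1, often called guardians. With presence set at 10 counts, 22 WT cells had 1 anti-apoptotic member, 18 had 2, none had all 3 and 8 had none. Among CKO cells the numbers were 10, 4, 2 and 1. Bax or Bak1 was present in 28 WT and 14 CKO cells, and of these 4 WT and 0 CKO cells had none of Bcl2, Bcl2l1 and Mcl1. Bcl2l2, which encodes a further guardian, was left out of these counts. It had at least 10 counts in 19 WT and 5 CKO cells. Whether the cells without Bcl2, Bcl2l1 and Mcl1 had Bcl2l2 was not examined. Low counts can miss a transcript that is present, so absence in 1 cell is not absence of the protein. Only 1 member had a count in CKO cell 4 (Bad at 225 CPM), WT cell 18 (Bad at 81.8 CPM) and WT cell 48 (Bcl2l1 at 26.2 CPM).

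Rank correlations between Bax, Bcl2l1, Mcl1 and Bad across cells were weak and of both signs, and none was tested. Over the 48 WT cells Spearman's rho was 0.0020 between Bcl2l1 and Mcl1, -0.10 between Bax and Bcl2l1, 0.075 between Bax and Mcl1 and 0.30 between Bcl2l1 and Bad. In the 17 CKO cells the same pairs had values of -0.23, 0.17, -0.31 and 0.041. Bax with Bad had 0.029 in WT and -0.22 in CKO cells, and Mcl1 with Bad had -0.11 and -0.067. Bax and Bcl2l1 were present together in 17 WT cells, where the product of their shares gives 18.6 cells, and in 11 CKO cells, where it gives 10.7. All pairs share library depth and sparse counts.

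The genes most like the 4 widely read members were sought among 6622 other genes read in at least 50% of the cells. Over 65 cells Mcl1 was most like Senp3 (rho 0.50), Lamtor3 (0.45) and Fam135a (0.44), and Bax most like Epb41 (0.46), Bin1 (0.39) and Cdc40 (0.38). Bcl2l1 was most like Prpf6 (0.42), Mrpl41 (0.39) and Tmpo (0.39), and Bad most like Usf3 (0.42), Syf2 (0.40) and Zbtb44 (0.40). Within WT cells alone these values ran from 0.20 for Bin1 to 0.47 for Senp3. They are the extremes of many comparisons on sparse counts, and Mcl1 itself had a rho of 0.31 with the number of genes detected.

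Other genes of the family went both ways. Of 15 further BCL2 family genes 8 were measured, with 3 higher and 5 lower in CKO and a median log2 ratio of -0.27 that was 0.13 against WT cells 12 to 45; 1 was at least 2-fold higher and 1 at least 2-fold lower, beside 29.5% of all measured genes past 2-fold in either direction. Bnip3l, a mitophagy gene, stood highest at 409 against 489 CPM (log2 ratio 0.26, but -0.024 within the Xist pattern and -0.13 against WT cells 1 to 11). Hrk, a BH3-only gene known from neurons, was read in 36 of 48 WT and 14 of 17 CKO cells at 43.5 and 34.7 CPM. These 2 genes were named after their values were seen. Bcl2l2, which encodes the guardian BCL-W, stood at 20.0 against 10.9 CPM (log2 ratio -0.88, but -0.18 within the Xist pattern and -0.13 against WT cells 1 to 11), and Bmf, another BH3-only gene, at 13.1 against 6.60 CPM. The log2 ratio of Bmf was -0.99, but 0.43 within the Xist pattern and 0.60 against WT cells 1 to 11. Bnip3, which serves mitophagy, was present at 10 counts in 40 of 48 WT and 8 of 17 CKO cells, at 77.1 against 34.1 CPM (log2 ratio -1.18, -0.012 against WT cells 46 to 48, -0.85 against WT cells 1 to 11, and -0.65 within the Xist pattern). Bcl2l13 stood at 8.36 against 22.4 CPM, but CKO cell 7 held 55.7% of its CKO counts and the log2 ratio of 1.42 became 0.34 without that cell and 0.37 against WT cells 1 to 11. Against WT cells 46 to 48, of which 1 had a count, the ratio was 4.15. The genes Bcl2a1a, Bcl2a1b, Bcl2a1d and Bcl2l15 had no count in any cell.

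Partners and regulators of the proteins differed in both directions. All 19 such genes were measured; CKO exceeded WT for 13 and lay below it for 6, with a median log2 ratio of 0.095 (-0.20 against WT cells 46 to 48), and 1 was past 2-fold, beside 29.5% of all measured genes; 5469 of the 10842 measured genes were higher in CKO. That gene was Trim17, a ubiquitin ligase known to act on MCL1 in neurons, at 17.5 against 58.4 CPM; without CKO cell 14 it stood at 28.2 CPM and the log2 ratio of 1.73 became 0.68, and within the Xist pattern it was 0.31. Of its exon bases 24.01% overlap other genes. Huwe1, a ubiquitin ligase of MCL1, stood at 113 against 63.4 CPM (log2 ratio -0.83, and -1.04 within the Xist pattern). Tmbim6, the Bax inhibitor of the endoplasmic reticulum, stood at 80.5 against 133 CPM, with the CKO cell higher in 75.7% of pairs, yet its log2 ratio of 0.72 was -0.20 against WT cells 46 to 48 and 1.64 within the Xist pattern. Mtch2, a mitochondrial receptor for the truncated BID protein, stood at 114 against 160 CPM.

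Downstream of the membrane, 9 of 10 genes of the apoptosome and intermembrane space passed the minimum; CKO exceeded WT for 7 and lay below it for 2, with a median log2 ratio of 0.53 that was -0.10 against WT cells 46 to 48. In each direction 1 was past 2-fold, beside 15.1% of all measured genes higher and 14.5% lower. Casp9, the initiator caspase, stood at 5.09 against 10.9 CPM and was past 2-fold (log2 ratio 1.09), but not without CKO cell 9, where the ratio was 0.22, nor within the Xist pattern, where it was 0.43. Against WT cells 46 to 48, which held 3 Casp9 counts in all, the ratio was 7.04. Htra2 stood at 12.8 against 25.3 CPM (log2 ratio 0.99, 0.51 without CKO cell 1, 3.71 against WT cells 1 to 11 and -0.58 against WT cells 46 to 48; the Xist-pattern WT cells had 1 count), and Diablo, an antagonist of caspase inhibitors, at 39.8 against 62.1 CPM; 43.7% and 40.9% of their exon bases overlap other genes, so their reads are uncertain. Chchd4, which imports proteins into the intermembrane space, was lower at 35.5 against 12.4 CPM (log2 ratio -1.52, and -0.53 against WT cells 1 to 11), with at least 10 counts in 18 of 48 WT and 2 of 17 CKO cells. Apaf1, the scaffold of the apoptosome, had no count in WT cells and 980 counts in 1 CKO cell.

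Transcription factors that act on family genes included Ddit3, Atf4 and Trp53 with higher sums in CKO and Foxo1 with a lower one. Of 11 genes 8 were measured, 5 higher and 3 lower, 4 at least 2-fold higher and 1 at least 2-fold lower, with a median log2 ratio of 1.00; over all measured genes 15.1% were at least 2-fold higher and 14.5% at least 2-fold lower. Ddit3 stood at 72.3 against 289 CPM (log2 ratio 2.00, and 0.41 against WT cells 46 to 48), with medians per cell of 52.2 and 135 CPM. CKO cell 14 held 32.6% of the CKO counts of Ddit3, and without it the CKO level was 211 CPM and the log2 ratio 1.54. Atf4 stood at 59.6 against 134 CPM (log2 ratio 1.17, and 2.44 against WT cells 46 to 48). Factors of this list are known to induce the BH3-only genes Bbc3, Pmaip1 and Bcl2l11 in other cells. Those genes stood at 4.07, 0 and 0.0018 CPM in WT and at 1.85, 0 and 0 CPM in CKO cells. Any action of the factors on them was not tested. Trp53 stood at 7.31 against 18.9 CPM, and its log2 ratio of 1.37 became 0.62 without CKO cell 7 and 2.54 against WT cells 46 to 48; the Xist-pattern WT cells had 1 count. Foxo1 stood at 5.68 against 0.235 CPM, a log2 ratio of -4.59 that was -3.45 without WT cell 33, which held 55.7% of the WT counts, and -2.65 within the Xist pattern. It passed the minimum of 5 CPM through the WT group alone, and such a filter favours large ratios.

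Genes of the p53 response differed in both directions. Among 14 genes, 11 passed the minimum; CKO exceeded WT for 4 and lay below it for 7, with 2 at least 2-fold higher and 2 at least 2-fold lower and a median log2 ratio of -0.68, beside 15.1% and 14.5% of all measured genes; the median was 0.45 against WT cells 46 to 48. Tnfrsf10b, a death receptor gene that DDIT3 is also known to induce, had at least 10 counts in 2 of 48 WT and 6 of 17 CKO cells, at 0.409 against 11.9 CPM (log2 ratio 4.86, 3.92 without CKO cell 4 and 6.70 within the Xist pattern). It passed the minimum of 5 CPM through the CKO group alone, and such a filter favours large ratios. Perp stood at 5.87 against 19.7 CPM (log2 ratio 1.75, and 0.93 without CKO cell 14); all 3218 WT counts came from WT cells 12 to 45, against which the ratio was 1.12. Ei24 was lower at 89.1 against 27.5 CPM, with at least 10 counts in 38 of 48 WT and 6 of 17 CKO cells and a log2 ratio of -1.70 that ran from -2.06 to -1.57 against the runs of WT cells. Zmat3 stood at 53.9 against 25.8 CPM (log2 ratio -1.06, -0.91 without WT cell 1, and 2.00 against WT cells 46 to 48). Fas had no count in any cell.

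**Figure D4:**
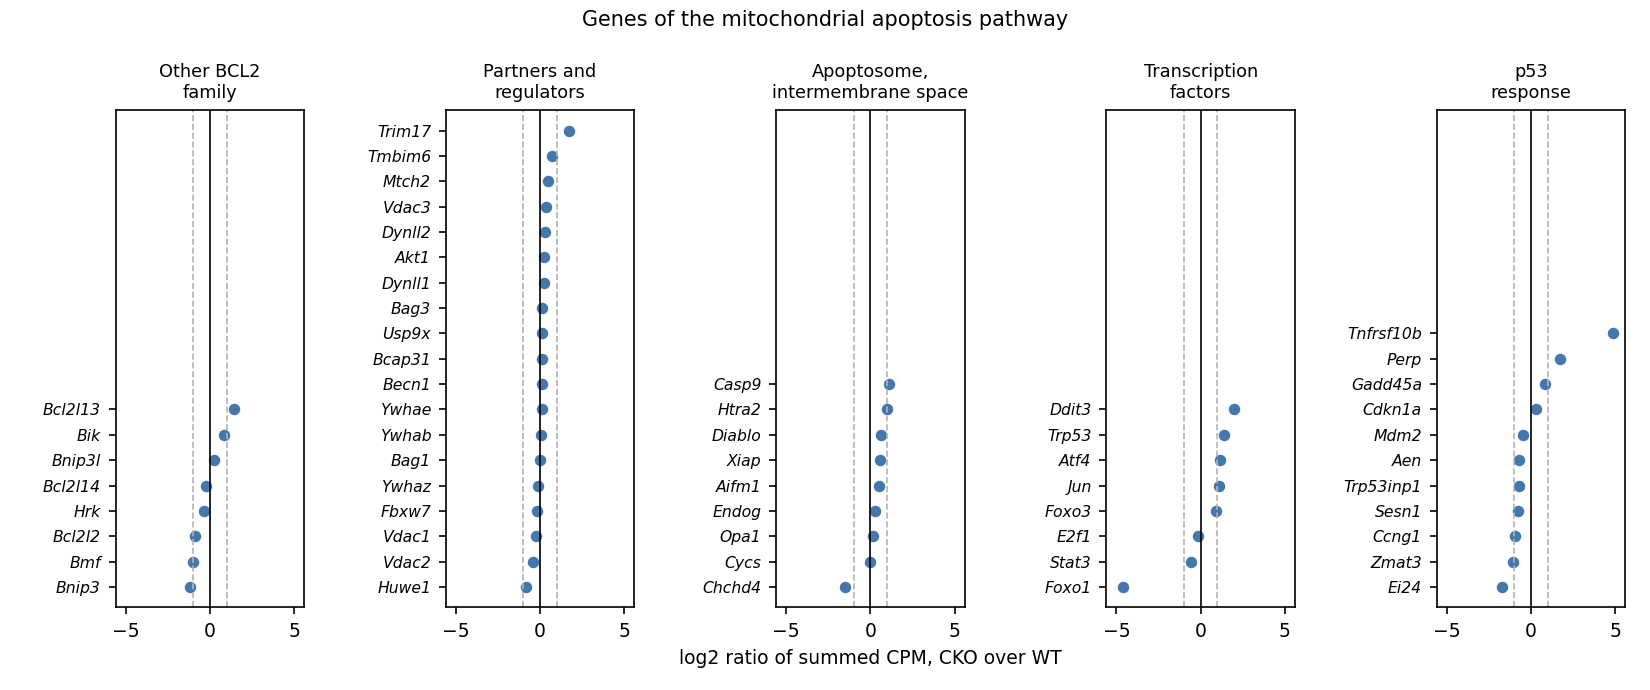
Log2 ratio of summed CPM, CKO over WT (horizontal axis), for each measured gene of the 5 pathway lists; dashed lines mark 2-fold and each panel orders its genes by ratio. Ddit3, Trp53 and Atf4 lie to the right among the transcription factors, and 7 of 11 genes of the p53 response lie to the left of 0.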

How the data were processed

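Single OHCs were sequenced after Smart-Seq HT amplification. A single table of raw counts, with gene symbols as rows, was deposited by the authors; HISAT2 2.2.1, StringTie 2.2.1, featureCounts 2.0.1 and mm10 are named per the submitters' processing notes, while annotation, strand setting and filters were not given in the sources used here. Every column matched 1 sample title.

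For each genotype, CPM is a gene's count added up across cells, per 1000000 of all their counts. Poisson, conditional (Clopper-Pearson) and binomial intervals were exact at 95%. A group without a count was set to 3 counts, and the upper limit beside a count of 0 is 3 of the total, not a binomial bound. In the pair share, ties counted 0.5. No cell was removed, and no 2 of the 65 columns were identical. Genes were called measured at 5 CPM in the higher group, and 2-fold was the call. Exon lengths and overlaps came from GENCODE M21, in which 53292 of 55292 symbols (96.4%) were found; promoters came from RefSeq (GRCm38.p6), for 9 members. The ratio code was tested on simulated data.

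The named genes were the members, Casz1, up to 4 measured genes per list with the largest absolute ratio, and 3 genes of most similar rank pattern per member read in at least 50% of cells. Members and lists were chosen with earlier results of these data known. Alternatives were the mean of per-cell CPM, TMM (edgeR 4.0.16), median-of-ratios (DESeq2 1.42.0), a reduced total, thinning to 7458126 counts, other minimums, and subsets of cells.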

Additional observations from a re-analysis of the deposited data

How the results depend on the processing

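No member was past 2-fold with the mean of per-cell CPM, the other scalings or a minimum of 20 CPM. The count was 1 among Xist-pattern cells, 1 against WT cells 1 to 11, 1 against WT cells 12 to 45, 3 against WT cells 46 to 48, 2 without a minimum, and 0 to 1 with each cell left out in turn (1 without WT cell 21, the gene being Bcl2). The share over all genes was computed for all 65 cells alone, so none stands beside these other counts. Bcl2 was the gene called among Xist-pattern cells, where WT had 0 counts, and against WT cells 1 to 11, which had 1 count. Against WT cells 46 to 48 the genes were Bax, Bcl2 and Mcl1, with 1 WT count of Bcl2 and 0 of Mcl1. The log2 ratio of the pro-apoptotic sum was 0.26 with TMM, 0.34 with median-of-ratios, 0.27 with totals without mitochondrial and ribosomal protein genes, 0.048 among Xist-pattern cells, 0.076, 0.36 and 0.88 against the 3 runs of WT cells in order, 0.35 per kilobase, and 0.17 to 0.36 with each cell left out. That of the anti-apoptotic sum was 0.017 with the mean of per-cell CPM, 0.033 with TMM, 0.12 with median-of-ratios, 0.044 with the reduced total, 0.16 among Xist-pattern cells, 0.54, -0.17 and 1.51 against the 3 runs, and -0.13 (without CKO cell 9) to 0.19 with each cell left out. The log2 change of their ratio was 0.28 with the mean of per-cell CPM and 0.28 per kilobase, -0.12 among Xist-pattern cells, -0.46, 0.53 and -0.63 against the 3 runs, and 0.029 (without CKO cell 5) to 0.47 (without CKO cell 9) with each cell left out. The cause of these shifts was not tested. Thinned to equal depth, the log2 ratio was 0.64 for Bax, -0.025 for Bcl2l1 and -0.016 for Bcl2. TMM moved the ratio of every gene by -0.043, median-of-ratios by 0.042 and the reduced total by -0.031. Since no animal is named, genotype and animal of origin cannot be told apart, and 17 CKO cells limit every share. No paired analysis was possible because the numbers in the labels only count cells and no test was run.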
